A study of Danio rerio with 2 samples.

Results

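The cells described here are sorted zebrafish blood cells with an intermediate amount of globin mRNA, given the working label of early erythroid cells. A cell was a member if it was sorted as class D or class S, held at least 500 transcripts, and had 1% to 5% of its transcripts, both ends included, from the 12 globin genes in the tables. 148 of 575 cells met this rule, 79 of 300 on plate 20 and 69 of 275 on plate 21. They were set beside 158 cells with over 5% globin (81 on plate 20 and 77 on plate 21) and 269 cells with under 1% globin (140 on plate 20 and 129 on plate 21). The study isolated hematopoietic stem and progenitor cells from the caudal hematopoietic tissue, the site in the larval tail where blood is made before the kidney takes over. The fish were wild type and 5 days old, and the labels add a sort day of 6. Cells were sorted into 2 plates of 384 wells, and the mRNA of each well was read with CEL-seq2, which counts the 3' ends of transcripts with molecular identifiers, so levels are compared for 1 gene between cells and not between genes. The plate layouts give all but 9 and 12 wells as double (D) or single (S), but the labels do not state which markers stand behind this sort. The layout of plate 21 carries no well numbers and was read along rows. Nothing in the labels says whether the plates hold cells from separate animals. The p-values therefore measure only how far differences between groups of cells vary across these 2 plates, which may be technical.

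Red blood cells arise from progenitors in which the factors gata1a, TAL1, LMO2 and klf1 switch on genes for heme synthesis, the cell membrane skeleton and globin. Heme is built in the mitochondrion and the cytosol, beginning with the erythroid enzyme alas2, and heme, iron and globin are assembled into hemoglobin as the cell matures. Early in this course the cells still divide and still hold progenitor factors such as MYB, while later stages accumulate globin until it dominates their mRNA.

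The members had a median of 8131 transcripts per cell on plate 20 and 10162 on plate 21, against 8257 and 9581 in the cells over 5% and 6836 and 7581 in the cells under 1%. Summed over cells, the members held 934585 and 874787 transcripts on the 2 plates. A single D well on plate 20 held 249815 transcripts, 26.7% of the members' total on that plate. It had 1.39% globin, and 23.3% of its non-globin transcripts came from the muscle list. For part of the results, values without this well are given beside those with it. Of the 148 members, 30 had under 2000 transcripts, 22 on plate 20 and 8 on plate 21, out of 61 such cells among all 575. Wells under 500 transcripts, which were not counted as cells, had a median globin share of 2.42% on plate 20 and 2.76% on plate 21, inside the range that defines the members. The part of free mRNA from other cells in the globin share of shallow members was not tested. Both plates number their wells 1 to 384, so well numbers are shared by design and do not mark shared cells.

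**Figure D1:**
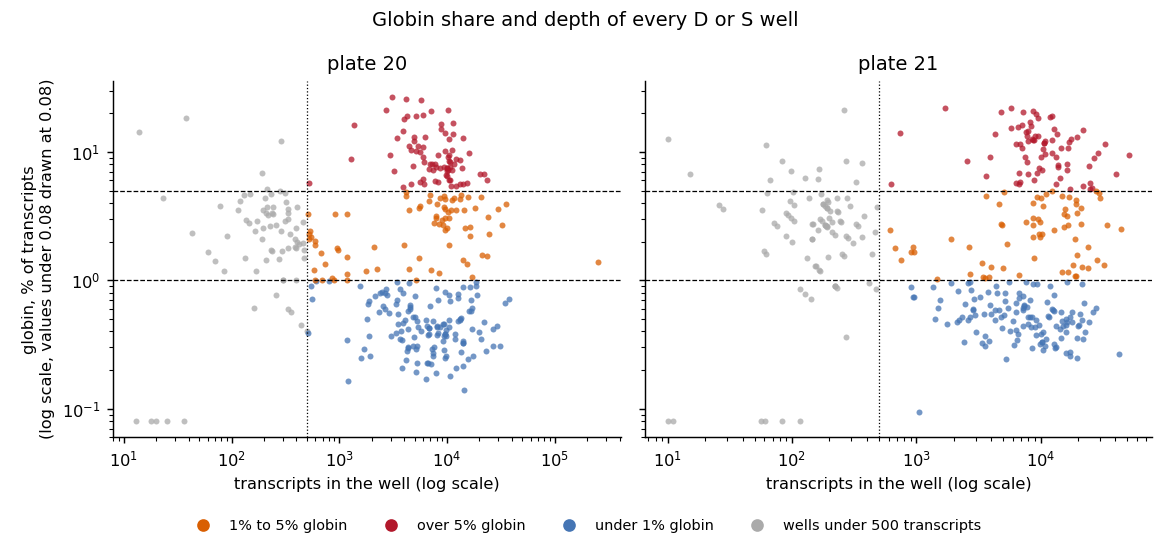
Share of transcripts from globin genes (y axis, %, log scale) against transcripts in the well (x axis, log scale) for every D or S well of each plate. Dashed lines mark 1% and 5%, the dotted line marks 500 transcripts, and the grey wells under 500 transcripts lie around 2.42% (plate 20) and 2.76% (plate 21), level with the orange members.

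The label was checked with the 4 markers alas2, cahz, TAL1 and LMO2. cahz encodes the carbonic anhydrase of zebrafish red cells, and TAL1 and LMO2 encode a transcription factor and its bridging partner in blood progenitors. Among members with at least 2000 transcripts, 56 of 57 on plate 20 (98.2%) and 59 of 61 on plate 21 (96.7%) held at least 3 of the 4 markers. The counts were 73 of 78 and 70 of 74 in cells over 5% of the same depth, and 55 of 125 and 57 of 119 in cells under 1%. Over all members the shares were 74.7% and 85.5%, because only 3 of 22 and 0 of 8 members under 2000 transcripts held 3 markers. In all, 7 members on plate 20 and 3 on plate 21 held none of the markers. At least 3 of the markers were thus detected in nearly all deeper members, and the shallow ones could not be placed by them. The markers were detected in most cells over 5% too, so they do not separate early from later red cells. lyz, a gene of neutrophils and macrophages, was detected in 48 of 57 and 51 of 61 of the deeper members. Detection alone therefore does not show that a cell expresses a gene. Genes that follow globin, such as alas2 and cahz, had to be found in a class cut on globin. The minimum of 2000 transcripts was chosen after seeing the data. For comparison, the markers were counted in cells with over 1% of non-globin transcripts from either the neutrophil or the macrophage list, which should lack these genes. alas2 was seen in 63 of 79 members on plate 20 (79.7%) and 58 of 69 on plate 21 (84.1%), at median depths of 8131 and 10162 transcripts. It was seen in 14 of 34 neutrophil or macrophage cells (41.2%) on plate 20 and 11 of 26 (42.3%) on plate 21, at median depths of 5167 and 7439. cahz was seen in 70 of 79 and 64 of 69 members, against 16 of 34 and 17 of 26 neutrophil or macrophage cells. TAL1 was seen in 58 of 79 and 61 of 69 members, against 9 of 34 and 9 of 26 of those cells, and LMO2 in 52 of 79 and 54 of 69 members, against 1 of 34 and 5 of 26. Whether free RNA gave these reads was not tested. In cells over 5%, alas2 was seen in 81 of 81 and 76 of 77 and cahz in 79 of 81 and 77 of 77. There TAL1 was seen in 73 of 81 and 68 of 77 and LMO2 in 62 of 81 and 62 of 77. Among cells under 1% outside the neutrophil or macrophage group, alas2 was seen in 52 of 107 and 47 of 103. The counts in these cells were 85 and 75 for cahz, 59 and 62 for TAL1 and 51 and 57 for LMO2.

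The members were selected on their globin values, which are therefore described without a test. The median globin share was 2.60% on plate 20 and 2.45% on plate 21, against 8.44% and 10.8% in cells over 5% and 0.434% and 0.517% in cells under 1%. The lowest members stood at 1.002% and 1.015% and the nearest cells below at 0.990% and 0.978%, while the highest members stood at 4.85% and 4.99% and the nearest cells above at 5.32% and 5.13%. The members are a range cut from a continuous share, not a separate type. Near the lower bound lay 14 members between 1% and 1.1% and 16 other cells between 0.9% and 1%, and near the upper bound lay 12 members between 4.5% and 5% and 7 other cells between 5% and 5.5%. The exact 95% binomial interval of the globin share, which covers counting error only, lay wholly within 1% to 5% for 103 of the 148 members.

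Within the members' globin, the alpha globin hbae3 gave 47.6% of globin transcripts on plate 20 and 44.5% on plate 21, against 53.2% and 49.5% in cells over 5% and 48.2% and 50.7% in cells under 1%. The next were the gene annotated as HBE1 with the identifier ENSDARG00000045143, at 23.2% and 20.6%, and hbae1.3, at 17.8% and 24.8%. A gene also annotated as HBE1, ENSDARG00000087390, gave 8.20% and 7.16% in members, 10.7% and 10.95% in cells over 5% and 5.33% and 5.07% in cells under 1%. Reads may be shared between such near-identical globin genes, so the division between them is uncertain. The first 3 genes named led the globin of all 3 classes.

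To ask which other genes set the members apart, counts were summed over the cells of each class and plate with the globin genes left out, and levels are given as CPM, counts scaled to the same total in every sum. A gene that follows globin from cell to cell had to differ between classes cut on globin, so the folds of red cell genes describe a size and are not independent evidence. The same holds for a middle position of such genes between the other classes. In such sums, fewer expressing cells and less mRNA per cell cannot be told apart. Of 7657 genes tested with edgeR's quasi-likelihood test, 499 (6.52%) were higher and 993 (13%) lower in members than in cells under 1% at an adjusted p under 0.05. Without the deepest well the counts were 612 (8.13%) higher and 1353 (18%) lower, sharing 463 and 970 genes with the counts above. Relative to cells over 5%, 120 genes (1.57%) were higher and 61 (0.797%) lower, and without the deepest well 344 (4.57%) were higher and 249 (3.31%) lower, sharing 118 and 61. The cells under 1% also held 59 of the 60 cells with over 1% of transcripts from the neutrophil or macrophage lists, against 1 among the members and 0 among the cells over 5%. Leaving these 60 cells out of all classes gave 226 genes higher and 476 lower in members than in cells under 1%. Both comparisons share the member sums and are therefore not independent of each other. The shares of all genes called are the background for the list counts below. At an unadjusted p under 0.05, 2527 of the 7657 genes passed against cells under 1% and 1578 against cells over 5%, in either direction.

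The genes of heme synthesis were at a middle level. alas2 stood at 652 and 636 CPM in members on plates 20 and 21, against 2708 and 2382 CPM in cells over 5% and 130 and 105 CPM in cells under 1%. With all wells kept the plates lie close together, and the classes do not overlap. The deepest well gave 75.69 of the 593.61 alas2 transcripts of members on plate 20, but 26.7% of all their transcripts. Without it the plate 20 level of alas2 is therefore higher, and the plates lie further apart. The log2 fold of alas2 was 2.50 ± 0.11 (SE, n = 2 plates in each fold given with an SE) against cells under 1% (edgeR adjusted p = 2.27e-05) and -1.94 ± 0.10 against cells over 5% (edgeR adjusted p = 0.0013). UROD, an enzyme further along the pathway, had 465 and 398 CPM in members, 925 and 800 CPM in cells over 5% and 208 and 130 CPM in cells under 1%. Of 13 heme genes tested, 7 rose and 1 fell against cells under 1%, with a median log2 fold of 1.35, beside 0.09 over all genes tested. The gene that fell was ALAS1, the housekeeping counterpart of alas2, which was named after its values were seen. It had 62.6 and 67 CPM in members, 77.7 and 64.5 CPM in cells over 5% and 208 and 166 CPM in cells under 1%. In the comparison with cells over 5%, 4 of the 13 fell and 0 rose, with a median of -0.70 beside 0.03 over all genes. At an unadjusted p under 0.05, 8 fell and 0 rose, DESeq2 called 4 lower and 0 higher, and without the deepest well 6 fell and 0 rose with edgeR. The middle class lay between the others on both plates for 11 of 13 heme genes (84.6%), beside 27% of all genes tested. Genes that follow globin had to take this position, so the share is a description only.

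Of 10 genes tested from the red cell membrane list, 7 lay between the other classes on both plates, 1 was lowest in members and 2 differed between plates. SLC4A1 (ENSDARG00000012881), the anion exchanger of the red cell membrane, had 4150 and 4536 CPM in members, against 7861 and 7744 CPM in cells over 5% and 1994 and 1678 CPM in cells under 1%. The log2 fold was 1.28 ± 0.07 against cells under 1% and -0.80 ± 0.07 against cells over 5% (edgeR adjusted p = 5.16e-05 and 0.00506). epb41b, a protein that ties the membrane to its skeleton, had 612 and 621 CPM in members, 1215 and 1036 CPM in cells over 5% and 254 and 205 CPM in cells under 1%. SPTB, a spectrin chain of that skeleton, had log2 folds of 1.22 ± 0.12 against cells under 1% and -0.78 against cells over 5% (edgeR adjusted p = 0.000628 and 0.0299). RHAG, an ammonium channel of the red cell surface, had 1271 and 1649 CPM in members, 1838 and 1615 CPM in cells over 5% and 974 and 874 CPM in cells under 1%. Its rise against cells under 1%, 0.69 ± 0.12 on the log2 scale (edgeR adjusted p = 0.00651), was not called without neutrophil or macrophage cells (0.44, adjusted p = 0.0578). Of 10 membrane genes tested, 7 rose and 1 fell against cells under 1% (median log2 fold 1.25), beside 6.52% and 13% of all genes. The list member that fell was RHBG, a relative of RHAG named after its values were seen. RHBG had 3.29 and 2.35 CPM in members, 0 and 3.52 CPM in cells over 5% and 58.5 and 44.8 CPM in cells under 1%. Relative to cells over 5%, 3 membrane genes fell and 0 rose with edgeR (median -0.62). At an unadjusted p under 0.05, 7 fell and 0 rose, DESeq2 called 3 lower, and without the deepest well 5 fell and 0 rose with edgeR.

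Iron and other red cell genes moved in part. The carbonic anhydrase cahz had 1996 and 1573 CPM in members, 5804 and 5041 CPM in cells over 5% and 372 and 286 CPM in cells under 1%. Its log2 fold was 2.48 ± 0.10 against cells under 1% and -1.57 ± 0.10 against cells over 5% (edgeR adjusted p = 2.27e-05 and 0.002). The deepest well gave 344.01 of the 1817.38 cahz transcripts of members on plate 20, but 26.7% of all their transcripts. The plate 20 level of cahz is therefore higher without that well. fth1a, a ferritin chain that stores iron, had 8497 and 9417 CPM in members, 14842 and 12994 CPM in cells over 5% and 5620 and 5132 CPM in cells under 1%. For fth1a the log2 fold was 0.77 ± 0.05 against cells under 1% and -0.59 ± 0.05 against cells over 5%. slc11a2, which carries iron across membranes, rose against cells under 1% by 0.87 ± 0.13 on the log2 scale. GLRX5, which serves iron-sulfur clusters, had 261 and 315 CPM in members, 416 and 353 CPM in cells over 5% and 161 and 136 CPM in cells under 1%, and rose against the last (edgeR adjusted p = 0.00479). tspo, a porphyrin-binding protein of the outer mitochondrial membrane, rose by 1.43 ± 0.11 (edgeR adjusted p = 0.000246). Of 9 iron genes tested, 4 rose and 0 fell against cells under 1% (median log2 fold 0.36), and 0 rose and 2 fell against cells over 5% with edgeR (median -0.46), or 0 and 5 at an unadjusted p under 0.05 and 0 and 2 with DESeq2. Of 14 red cell enzyme genes tested, 4 rose and 2 fell against cells under 1% (median 0.42), and 0 rose and 2 fell against cells over 5% with edgeR (median -0.28), or 1 and 5 at an unadjusted p under 0.05 and 1 and 3 with DESeq2. Over all genes, edgeR called 6.52% higher and 13% lower against cells under 1%, and 1.57% and 0.797% against cells over 5%.

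**Figure D2:**
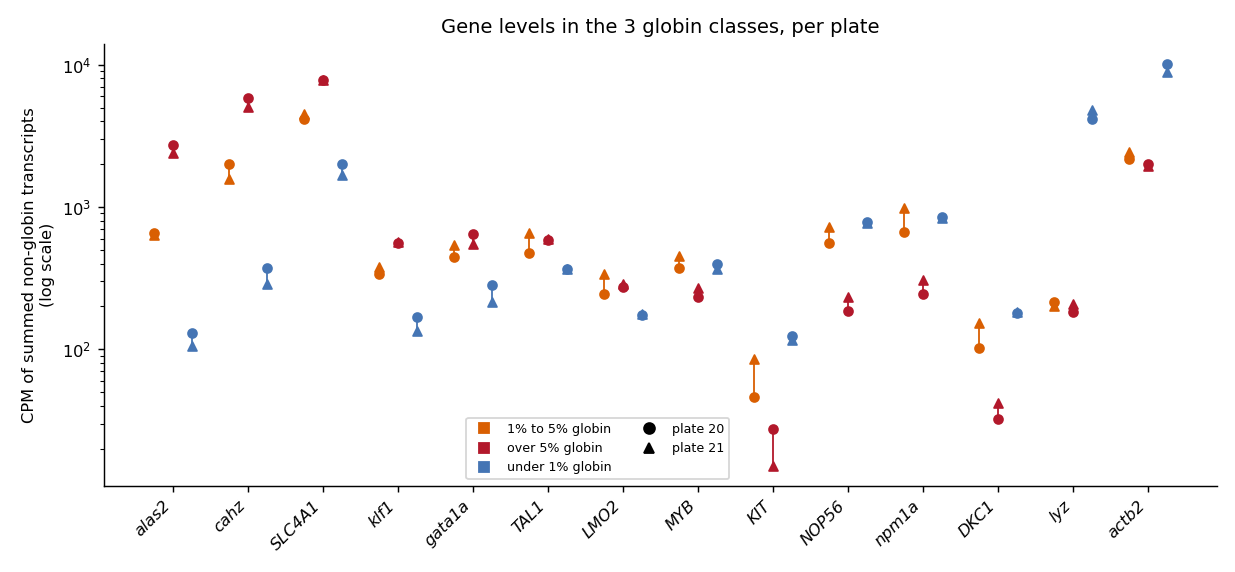
CPM (y axis, log scale) of 14 genes in the summed non-globin transcripts of the members (orange, left), cells over 5% (red) and cells under 1% (blue); circles are plate 20 and triangles plate 21. For alas2 the members' 652 and 636 CPM lie between the other classes, whereas for TAL1 the members' 474 and 661 CPM span the 586 and 592 CPM of cells over 5% (all wells kept).

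Against cells over 5%, the erythroid factors ranged from similar levels to lower ones. The genes were not tested against each other, and a missing call does not show equal levels. TAL1 had 474 and 661 CPM in members, against 586 and 592 CPM in cells over 5% and 368 and 365 CPM in cells under 1%. LMO2 had 243 and 337 CPM in members, 274 and 286 CPM in cells over 5% and 175 and 178 CPM in cells under 1%. For both genes the members' plates span the cells over 5% and lie above the cells under 1%. Without the deepest well plate 20 had 589 CPM of TAL1 and 304 CPM of LMO2 in members, so that both genes were then highest in members on both plates, TAL1 on plate 20 by less than the spread between plates. TAL1 and LMO2 rose against cells under 1% by 0.65 ± 0.14 and 0.74 ± 0.15 on the log2 scale (edgeR adjusted p = 0.0162 and 0.014). The folds against cells over 5% were -0.03 ± 0.14 and 0.08 ± 0.15 (edgeR adjusted p = 0.937 and 0.822). The rise of both against cells under 1% was not called without the neutrophil or macrophage cells, at 0.41 (adjusted p = 0.123) and 0.48 (adjusted p = 0.105). gata1a, the master factor of red cells, had 444 and 542 CPM in members, 641 and 548 CPM in cells over 5% and 281 and 216 CPM in cells under 1%. The 444 CPM of gata1a includes the deepest well, and the plate 20 level in members is higher without it. gata1a rose by 1.03 ± 0.15 on the log2 scale against cells under 1% (edgeR adjusted p = 0.00397). It stood at -0.23 ± 0.15 against cells over 5% (edgeR adjusted p = 0.445).

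klf1, which activates adult globin and membrane genes in mammals, had 340 and 380 CPM in members, 559 and 567 CPM in cells over 5% and 170 and 134 CPM in cells under 1%. klf1 rose by 1.29 ± 0.15 on the log2 scale against cells under 1%, and its value of -0.61 ± 0.15 against cells over 5% passed the test only without the deepest well (edgeR adjusted p = 0.0831 with it, and -0.56 with 0.0162 without it). klf17, a related factor of fish blood, had 169 and 189 CPM in members, 230 and 240 CPM in cells over 5% and 41.2 and 29.9 CPM in cells under 1%. Its log2 fold was 2.37 ± 0.19 against cells under 1% (edgeR adjusted p = 0.000258) and -0.35 against cells over 5% (edgeR adjusted p = 0.297). hemgn, a nuclear protein of erythroid cells, had 1047 and 1138 CPM in members, 2064 and 1788 CPM in cells over 5% and 494 and 418 CPM in cells under 1%, and differed from both. GFI1B, a repressor needed for red cell development, had 38.4 and 34.1 CPM in members, 40.5 and 37.5 CPM in cells over 5% and 14.8 and 13.3 CPM in cells under 1%. Of 17 erythroid factors tested, 9 rose and 0 fell against cells under 1% (median log2 fold 0.65), and 6 rose and 0 fell without neutrophil or macrophage cells. Among the same genes, 0 rose and 2 fell against cells over 5% with edgeR (median -0.35), 0 and 5 at an unadjusted p under 0.05 and 0 and 2 with DESeq2. Without the deepest well 0 rose and 4 fell. EPOR, the erythropoietin receptor, had 190 and 269 CPM in members, 339 and 259 CPM in cells over 5% and 175 and 123 CPM in cells under 1%, with no call in either comparison (edgeR adjusted p = 0.428 against cells over 5% and 0.0673 against cells under 1%). The plate 20 levels of klf1 and EPOR in members include the deepest well and are higher without it. None of the 8 erythropoietin signalling genes tested passed in either comparison with edgeR or DESeq2. At an unadjusted p under 0.05, 2 were higher and 1 lower than in cells over 5%, and 1 was higher and 3 lower than in cells under 1%, beside 1578 and 2527 of all 7657 genes in these comparisons. Without the deepest well 1 rose and 3 fell of 7 tested against cells under 1%, and 1 rose and 0 fell against cells over 5%.

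Progenitor genes varied in their order. MYB, a factor of blood progenitors, had 371 and 455 CPM in members, 232 and 268 CPM in cells over 5% and 400 and 365 CPM in cells under 1%. The members lie above the cells over 5% on both plates and overlap the cells under 1%. Without the deepest well plate 20 had 479 CPM in members, so that MYB was then above both other classes on both plates. Cells under 1% outside the neutrophil or macrophage group had 452 and 414 CPM of MYB. These values are closer to the members' levels without the deepest well, so a peak of MYB in members is not shown. MYB was higher than in cells over 5% by 0.76 ± 0.15 on the log2 scale (edgeR adjusted p = 0.0476; 0.82 and 0.00179 without the deepest well), and its value against cells under 1% was 0.14 ± 0.15 (edgeR adjusted p = 0.547). The call against cells over 5% was close to the threshold and was lost in 5 of the alternatives tried, where the adjusted p was 0.0535 to 0.602. KIT, a receptor of progenitors, had 46.1 and 85.8 CPM in members, 27.5 and 15.2 CPM in cells over 5% and 124 and 117 CPM in cells under 1%. KIT was not called with the deepest well (1.68 ± 0.35 against cells over 5%, edgeR adjusted p = 0.0605) and was called without it (1.77, adjusted p = 0.00202). CXCR4 (ENSDARG00000041959), a chemokine receptor of progenitors and leukocytes, had 112 and 152 CPM in members, 77.8 and 64.4 CPM in cells over 5% and 501 and 448 CPM in cells under 1%, and fell by 1.82 on the log2 scale against cells under 1% (SE 0.18, edgeR adjusted p = 0.000653).

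Of 11 stem and progenitor genes tested, 1 rose and 7 fell against cells under 1% (median log2 fold -2.59), and 1 rose and 1 fell against cells over 5% (median 0.76). The list holds genes that leukocytes express as well, among them ptprc, SPI1 and CXCR4, and it gave 0.233% and 0.208% of non-globin transcripts in the neutrophil or macrophage cells. Without those cells 1 rose and 5 fell of 10 tested against cells under 1% (median -1.99). The one that rose against cells under 1% was MLLT3, a chromatin reader that maintains stem cells in mammals, named after its values were seen. MLLT3 had 13.2 and 12.9 CPM in members, 55.1 and 52.7 CPM in cells over 5% and 1.65 and 1.66 CPM in cells under 1%. It was lower than in cells over 5% and higher than in cells under 1%. The levels in cells under 1% lie below 2.47 and 2.49 CPM, which stand for 3 counts in those sums, so the size of the rise is uncertain. Red cell and progenitor genes were also found in the same cells. MYB together with gata1a or klf1 was seen in 53 of 79 members on plate 20 (67.1%) and 55 of 69 on plate 21 (79.7%), against 46 of 81 and 57 of 77 cells over 5% and 66 of 140 and 62 of 129 cells under 1%. Among cells of at least 2000 transcripts the pair was seen in 52 of 57 (91.2%) and 54 of 61 members (88.5%). The counts were 46 of 78 and 57 of 74 in cells over 5% and 63 of 125 and 62 of 119 in cells under 1%. Median depths were 9646 and 12465 transcripts in these members, 8436.5 and 9917 in cells over 5% and 7550 and 8267 in cells under 1%. Detection depends on depth, and the classes were not matched for it. In the neutrophil or macrophage cells MYB was seen in 12 of 34 and 10 of 26, and gata1a in 17 of 34 and 16 of 26. Their levels in these cells were 158 and 112 CPM for MYB and 111 and 142 CPM for gata1a. No count of the pair in these cells is given, and the part of free RNA in such shares was not tested.

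The genes named by rank as higher in members than in cells over 5% included the following. npm1a, a nucleolar chaperone, had 672 and 986 CPM in members, 243 and 305 CPM in cells over 5% and 851 and 839 CPM in cells under 1%. NOP56, part of the particle that methylates ribosomal RNA, had 555 and 728 CPM in members, 185 and 232 CPM in cells over 5% and 783 and 771 CPM in cells under 1%. Both genes were above the cells over 5% and near the cells under 1%. Without the deepest well npm1a on plate 20 had 861 CPM in members, so that it was highest in members on both plates. On plate 20 this was by less than the spread between plates. Their log2 folds against cells over 5% were 1.62 ± 0.14 and 1.66 ± 0.14 (edgeR adjusted p = 0.00523 for each), and against cells under 1% they were -0.02 ± 0.13 and -0.25 ± 0.13 (edgeR adjusted p = 0.948 and 0.239). DKC1, which modifies ribosomal RNA, had 102 and 154 CPM in members, 32.4 and 42.2 CPM in cells over 5% and 179 and 183 CPM in cells under 1%. DKC1, ncl, a major nucleolar protein, WDR43, a factor of the small ribosomal subunit, and rsl1d1, a nucleolar protein, were higher than in cells over 5% by 1.80 ± 0.19, 1.22 ± 0.13, 1.73 ± 0.19 and 1.52 ± 0.16 on the log2 scale. These genes belong to no list used here, and no count over such genes is given. PMP22, a membrane protein known from myelin, stood at 109 and 94 CPM in members, 22.7 and 15.2 CPM in cells over 5% and 222 and 223 CPM in cells under 1% (log2 fold 2.48 ± 0.24 against cells over 5%). The ribosomal protein list, matched by symbol, also took in kinase genes such as RPS6KA1 and rps6kb1a, and rps19bp1. This list gave 1 rise and 0 falls of 79 tested against cells over 5% (median -0.15). The gene that rose is not named here. The counts were 1 and 26 at an unadjusted p under 0.05, 0 and 19 with DESeq2, and 1 and 10 without the deepest well.

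**Figure D3:**
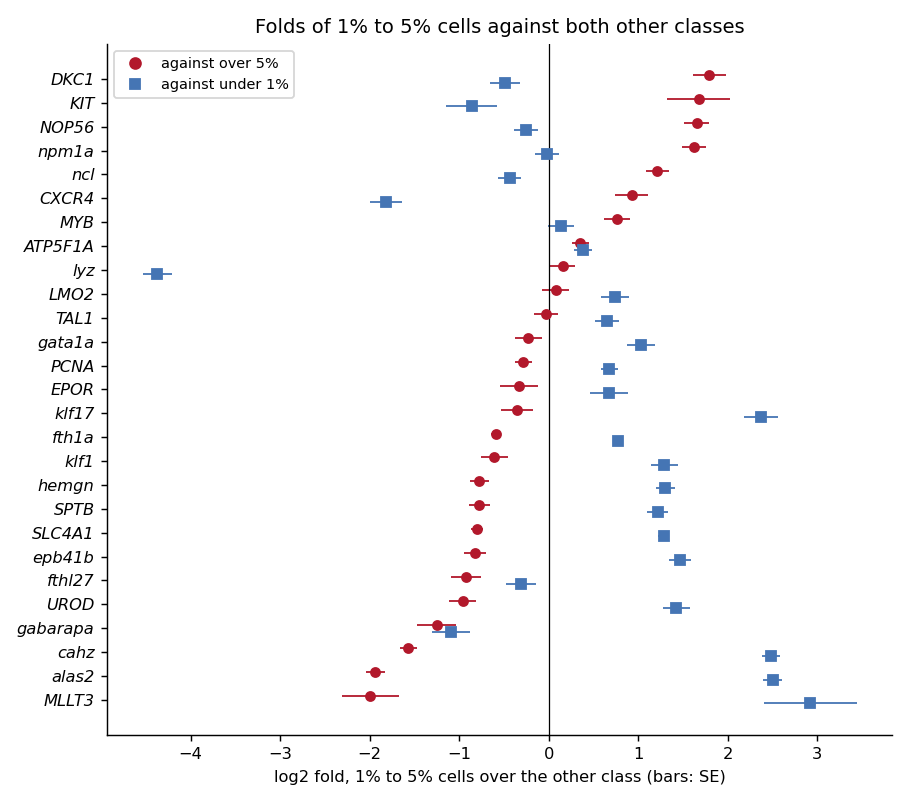
Log2 folds of the members over cells with over 5% globin (red circles) and over cells with under 1% globin (blue squares) for part of the named genes, bars showing the SE. NOP56 and npm1a lie at 1.66 and 1.62 against cells over 5% and near 0 against cells under 1%, while alas2 lies at -1.94 and 2.50.

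Genes lower in members than in cells over 5% included, besides the red cell genes above, nt5c2l1, whose symbol names a nucleotidase, with 128 and 106 CPM in members, 373 and 321 CPM in cells over 5% and 51.1 and 40.7 CPM in cells under 1%. The ferritin-like gene fthl27 had 339 and 437 CPM in members, 669 and 838 CPM in cells over 5% and 547 and 436 CPM in cells under 1%, and fell by 0.92 on the log2 scale against cells over 5% (SE 0.17, edgeR adjusted p = 0.041). gabarapa, of the family that closes autophagosomes, was lowest in members on both plates, at 30.8 and 23.5 CPM, against 79.4 and 55.1 CPM in cells over 5% and 74.96 and 46.5 CPM in cells under 1%. gabarapa fell by 1.25 and 1.09 on the log2 scale against cells over 5% and under 1% (edgeR adjusted p = 0.0389 and 0.0114), calls that DESeq2 did not make (adjusted p = 0.127 and 0.216). Of 10 late maturation genes tested, 2 rose and 2 fell against cells under 1% (median 0.07), and 0 rose and 1 fell against cells over 5% (median -0.45, with 1 and 4 at an unadjusted p under 0.05 and 0 and 0 with DESeq2). Over all genes, edgeR called 6.52% higher and 13% lower against cells under 1%, and 1.57% and 0.797% against cells over 5%.

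Part of the cell cycle genes were higher than in cells under 1%. PCNA, the clamp of DNA replication, had 1348 and 1375 CPM in members, 1744 and 1672 CPM in cells over 5% and 937 and 817 CPM in cells under 1%, and rose by 0.68 ± 0.10 on the log2 scale against cells under 1% (edgeR adjusted p = 0.00324). Of 33 cell cycle genes tested, 18 rose and 0 fell (median 0.83), and 10 rose and 0 fell without neutrophil or macrophage cells. Over all genes 6.52% rose and 13% fell, and without those cells 226 rose and 476 fell of 7423. PCNA stood at -0.29 ± 0.10 against cells over 5% (edgeR adjusted p = 0.167), where 0 of the 33 passed with edgeR. At an unadjusted p under 0.05, 12 were lower and 0 higher, beside 1578 of all 7657 genes in either direction, and DESeq2 called 3 lower. Without the deepest well 0 rose and 8 fell of 32, and the median was -0.40 in both settings. The median share of non-globin transcripts from this list was 0.551% and 0.594% per member, 0.771% and 0.735% per cell over 5% and 0.203% and 0.185% per cell under 1%.

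**Figure D4:**
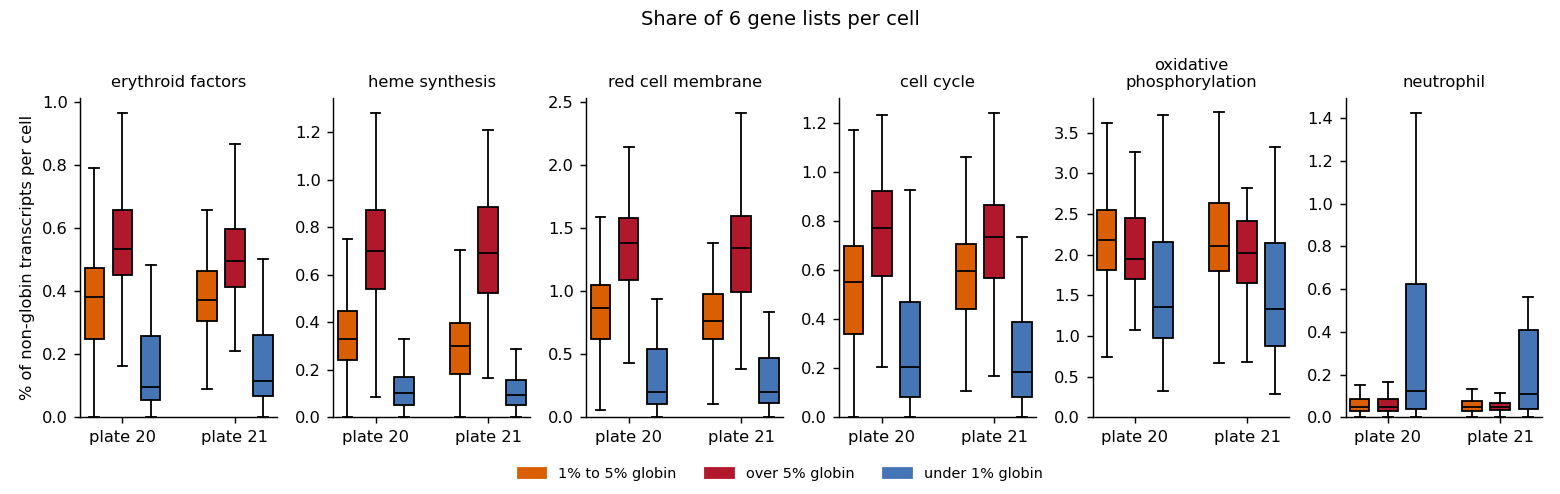
Share of non-globin transcripts from 6 gene lists per cell (y axis, %), by plate, for members (orange), cells over 5% (red) and cells under 1% (blue); boxes span the quartiles with the median as a line and whiskers reach the last value within 1.5 box lengths. The members' medians for heme synthesis, 0.328% and 0.300%, lie between the other classes, and those for oxidative phosphorylation, 2.18% and 2.11%, lie above both.

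The members' level was also set against the mean log2 level of the other classes in 1 contrast. A gene near one class and far from the other can pass it, so a call does not show a difference from both sides. With all wells, 11 genes (0.144%) were higher and 87 (1.14%) lower at an adjusted p under 0.05. Without the deepest well 148 (1.97%) were higher and 316 (4.2%) lower, sharing 9 and 87 genes with the counts above, and leaving out neutrophil or macrophage cells gave 1 higher and 16 lower. bcl2l13, a mitochondrial protein of the BCL2 family, was highest in members on both plates, with 71.4 and 90.5 CPM, against 21.1 and 29.3 CPM in cells over 5% and 58.5 and 68.9 CPM in cells under 1% (log2 difference 1.04 ± 0.18, edgeR adjusted p = 0.0427). VCL, a protein that links actin to adhesion sites, was also highest, with 158 and 156 CPM, against 136 and 142 CPM in cells over 5% and 64.3 and 58.9 CPM in cells under 1% (0.81 ± 0.14, edgeR adjusted p = 0.0476). VCL lay nearer the cells over 5% and bcl2l13 nearer the cells under 1%, and their folds against the nearer class alone are not given here. slc25a18, a mitochondrial glutamate carrier, had 115 and 99.9 CPM in members, 79.4 and 118 CPM in cells over 5% and 21.4 and 17.4 CPM in cells under 1%, so that it was not highest on plate 21. npm1a, NOP56 and klf17 also passed in this contrast, each near one side and far from the other, at 0.80 ± 0.11, 0.70 ± 0.11 and 1.01 ± 0.15. None of the calls of these 6 genes held without neutrophil or macrophage cells, where the adjusted p was 0.114 to 0.172. XIRP2 (ENSDARG00000071113), a muscle protein, had 247 and 1.18 CPM in members, and 9.03 CPM on plate 20 without the deepest well.

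Genes of oxidative phosphorylation, which encode the respiratory chain and the ATP synthase, had their highest summed level in members. The list gave 2.24% and 2.28% of the members' non-globin transcripts, against 2.03% and 2.04% in cells over 5% and 1.80% and 1.79% in cells under 1%. On both plates 44 of 81 genes tested (54.3%) were highest in members, beside 8.84% of all genes tested, and 43 of 81 beside 16.6% without the deepest well. The size was small, with a median log2 fold of 0.18 against cells over 5% (0.03 over all genes) and 0.37 against cells under 1% (0.09 over all genes). Single genes seldom passed. With edgeR, 1 of 81 rose and 0 fell against cells over 5%, 9 rose and 0 fell against cells under 1%, and the count of 9 became 1 without neutrophil or macrophage cells. At an unadjusted p under 0.05, 18 and 35 of the 81 were higher and 0 lower in these comparisons, beside 1578 and 2527 of all 7657 genes in either direction, and DESeq2 called 1 and 4 higher. ATP5F1A, a catalytic-core subunit of the ATP synthase, had 1483 and 1633 CPM in members, 1223 and 1288 CPM in cells over 5% and 1222 and 1230 CPM in cells under 1% (log2 fold 0.35 ± 0.10 and 0.38 ± 0.10, edgeR adjusted p = 0.115 and 0.0313), and its call against cells under 1% was lost in 7 of the alternatives tried. In the neutrophil or macrophage cells the list gave 1.12% and 1.15%, and without them 1.95% and 1.91% of the cells under 1%.

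Markers of other cell types moved with the comparison against cells under 1%. All 13 neutrophil genes tested fell (median log2 fold -3.96), and the summed list gave 0.0604% and 0.0495% of the members' non-globin transcripts, against 0.0517% and 0.0493% in cells over 5% and 1.1% and 1.09% in cells under 1%. lyz, the lysozyme of neutrophils and macrophages, had 216 and 202 CPM in members, 181 and 209 CPM in cells over 5% and 4159 and 4802 CPM in cells under 1%. Without the neutrophil or macrophage cells lyz stood at 0.41 on the log2 scale (adjusted p = 0.203). lyz belongs to the neutrophil list that picked those cells, so the loss of its fall followed from the rule. For the macrophage list 8 of 9 fell, for the lymphoid list 3 of 4, for the epidermis list 12 of 13, for the stroma list 6 of 6 and for the thrombocyte list 1 of 4, with 0 higher in each. Over all genes 13% fell and 6.52% rose. None of the endothelial genes passed the filter on low counts. Of the stress genes, 8 of 15 fell and 0 rose (median -1.31), and of the mitochondrially encoded genes 1 of 13 fell and 0 rose (median -0.10). Keratin krt5 had 37.3 and 34.1 CPM in members, 29.2 and 38.7 CPM in cells over 5% and 1126 and 1212 CPM in cells under 1%, and stood at -0.40 (adjusted p = 0.303) without the 15 wells with over 5% of transcripts from the muscle or epidermis lists. krt5 belongs to the epidermis list that picked such wells, so its smaller fold also followed from the rule. ptprc, the pan-leukocyte gene CD45, and SPI1, a factor of myeloid cells, had at most 8.79 and 14.3 CPM in members, 6.48 and 4.86 CPM in cells over 5% and 142 and 114 CPM in cells under 1%. With edgeR, 993 genes were lower in members than in cells under 1%, and 476 without the neutrophil or macrophage cells. Without the muscle or epidermis wells, which include the deepest well, 1322 were lower. Which cells gave each of the other falls was not tested. actb2 and tmsb4x, the abundant actin and thymosin genes, also fell, by 2.0 and 3.53 on the log2 scale.

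In the comparison with cells over 5%, edgeR and DESeq2 each gave 0 calls for neutrophil, macrophage, lymphoid, thrombocyte and stroma genes and 1 higher for epidermis genes. Over all genes edgeR called 1.57% higher and 0.797% lower, and lists this short would seldom give a call at these rates. At an unadjusted p under 0.05, 2 of 13 neutrophil genes were higher and 2 lower, and 0 of 9 macrophage genes were higher and 1 lower. The counts were 1 and 0 of 4 lymphoid, 0 and 2 of 4 thrombocyte and 1 and 0 of 6 stroma genes. Over all genes, 1578 of 7657 had such a p in either direction. The muscle list gave 6.76% of non-globin transcripts of members on plate 20 and 0.109% on plate 21, against 0.462% and 0.128% in cells over 5% and 0.416% and 1.3% in cells under 1%. Its median log2 fold against cells over 5% was 3.77 with the deepest well and 0.23 without it.

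The members' own range was described over members of at least 2000 transcripts without the deepest well, with 14, 11 and 31 cells on plate 20 and 22, 16 and 23 on plate 21 at 1% to 2%, 2% to 3% and 3% to 5% globin. alas2 had 477, 568 and 1004 CPM across these ranges on plate 20 and 390, 669 and 835 CPM on plate 21. cahz had 1072, 1568 and 3006 CPM on plate 20 and 1063, 1598 and 2031 CPM on plate 21. Both increased with globin on each plate. TAL1 had 730, 443 and 619 CPM on plate 20 and 791, 634 and 579 CPM on plate 21, and LMO2 had 383, 267 and 305 CPM on plate 20 and 375, 293 and 345 CPM on plate 21. MYB had 579, 535 and 424 CPM on plate 20 and 495, 526 and 378 CPM on plate 21. TAL1, LMO2 and MYB were lower at 3% to 5% than at 1% to 2% on both plates. LMO2 was lowest at 2% to 3% on both plates, and TAL1 was lowest there on plate 20. klf1 had 238, 430 and 514 CPM on plate 20 and 358, 436 and 369 CPM on plate 21, so that the plates differed. Across the cells, Spearman's rho between globin share and the heme synthesis share was 0.56 (n = 56) on plate 20 and 0.57 (n = 61) on plate 21, and for the membrane share it was 0.30 and 0.58. For the erythroid factor share it was 0.29 and 0.28, and for the late maturation share 0.15 and 0.26. By gene, the rho was 0.42 and 0.51 for alas2, 0.39 and 0.08 for klf1, and 0.12 and 0.27 for gata1a. It was -0.05 and -0.13 for TAL1, -0.05 and -0.003 for LMO2, and -0.22 and -0.12 for MYB. For transcripts per cell it was 0.02 and 0.16. These cells share a library on each plate, and no p is given.

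**Figure D5:**
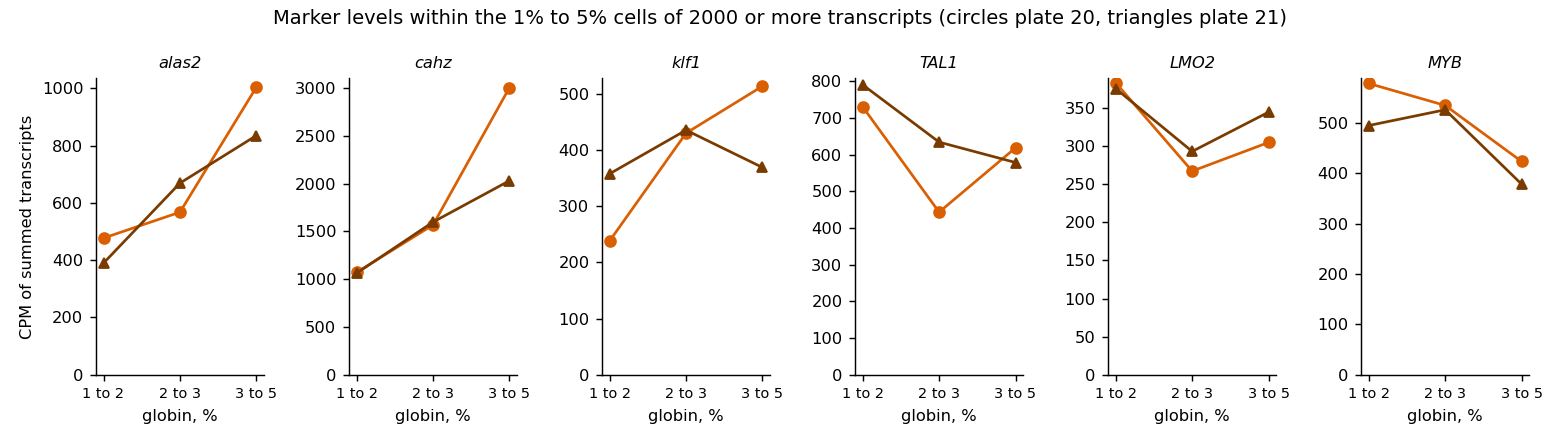
CPM of 6 genes (y axes) in members of at least 2000 transcripts, without the deepest well, summed over cells at 1% to 2%, 2% to 3% and 3% to 5% globin (x axis), with circles for plate 20 and triangles for plate 21. alas2 goes up on both plates to 1004 and 835 CPM, while MYB is lowest at 3% to 5%, at 424 and 378 CPM.

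Of the members, 50 were D and 29 S on plate 20, and 48 were D and 21 S on plate 21. Members made up 26.5% of D cells on plate 20 (exact 95% binomial interval 20.3% to 33.3%) and 25.8% on plate 21 (19.7% to 32.7%), against 26.1% of S cells on plate 20 (18.2% to 35.3%) and 23.6% on plate 21 (15.2% to 33.8%). The D share was 63.3% and 69.6% of members, 50.6% and 46.8% of cells over 5%, and 98 of 140 (70%) and 79.1% of cells under 1%. Read down columns, the plate 21 layout gave 40 D and 29 S members and 48 D and 27 S cells over 5%. It then gave 91 D and 38 S cells under 1%, and members made up 22.3% of D and 30.9% of S cells. The order of the classes by D share on plate 21 thus depends on how its layout is read. Within members, alas2 had 548 and 670 CPM in D cells, against 888 and 554 CPM in S cells. cahz had 1665 and 1647 CPM in D cells, against 2743 and 1395 CPM in S cells. The order of D and S was opposite on the 2 plates for both genes. TAL1 and LMO2 had log2 folds of 0.21 ± 0.16 and 0.21 ± 0.18 for D over S. Of 5709 genes tested over 12 sums, 1 (0.0175%) was higher in D and 0 (0.0%) lower with edgeR, 263 had an unadjusted p under 0.05, and DESeq2 called 0. The 1 gene was myhz2, a muscle myosin, with 2245 CPM in D cells of plate 20, where the deepest well lies, and 0 in D cells of plate 21. Without that well 0 genes were called. For a change of the D to S difference between members and cells under 1%, edgeR called 0 of the 5709 genes, 434 had an unadjusted p under 0.05, and DESeq2 called 23 higher and 1 lower. With 2 plates, such counts do not show that D and S members were alike.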

How the data were processed

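CEL-seq2 counts of 2 plates of sorted cells were used. The deposited values are expected counts: per gene and well they are not whole, and 100% of values above 0 match a whole number of molecular identifiers out of 4096 corrected for collisions, within 0.01. Reads were aligned by the authors with BWA to Zv9, per the submitters' processing notes, and the counting tool and versions were not given in the sources used here. Spike-in rows were left out. Of 19955 gene IDs, 15742 (78.9%) have a name, with 81.5% of transcripts. Depth per class is given in the report.

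Cells were summed per plate and globin class (6 sums) or also by sort class (12 sums), without globin genes, rounded to whole numbers, and tested with edgeR 4.0.16 in R 4.3.3 (filterByExpr, TMM, quasi-likelihood, two-sided, Benjamini-Hochberg over all genes tested, threshold 0.05), with plate as a block, since all classes come from the same plates. The 6 sums leave few residual degrees of freedom. The correlations between classes of their plate differences were 0.22 for members and cells over 5%, -0.14 for members and cells under 1% and 0.04 for the other pair. SEs were derived from the fold and its F value. DESeq2 1.42.0 was an alternative. Lists were matched by symbol and are described by counts and medians. Sums and shares used pandas 2.3.3, numpy 2.4.6 and scipy 1.17.1. Intervals are exact Clopper-Pearson intervals for counting error only. Wells held sorted cells, and no doublet caller was run. The scripts were tested on simulated data.

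Named genes are the markers, up to 8 genes per comparison and direction with the smallest p, adjusted p under 0.05 and the same sign on both plates, a set of erythroid and leukocyte genes, and the 4 most abundant of each list; others are said to be named after their values were seen. The members and lists were chosen with earlier results of these data known. The alternatives changed the normalization, test, low-count filter, block, cell minimum, depth, globin bounds, doubtful wells and the plate 21 layout. The values of 1 gene named by this rule are not reported here.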

Additional observations from a re-analysis of the deposited data

Results flagged for a closer look

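Wells sorted as D or S with under 500 transcripts, which no comparison uses, had a median globin share of 2.42% on plate 20 (75 wells) and 2.76% on plate 21 (97 wells). Of these wells, 58 and 68 lay within 1% to 5%. Over the whole plate, shallow wells and all others together, globin gave 3.29% and 4.21% of transcripts. Wells with no sort class in the layout also held signal: of those with at least 500 transcripts, 2 of 7 on plate 20 and 3 of 9 on plate 21 had 1% to 5% globin. No control wells known to be empty set a level for either.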

How the results depend on the processing

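Each class has 2 sums, 1 per plate. Counts of genes called are given where they left 1.5 times the value in the report. Members against cells under 1%: DESeq2 gave 145 higher and 470 lower, cells thinned to 500 transcripts 45 and 85, and leaving out neutrophil or macrophage cells 226 and 476. Against cells over 5%: DESeq2 gave 63 higher; no low-count filter gave 533 higher and 249 lower, thinning 17 and 14, narrower globin bounds 310 and 253, no deepest well 344 and 249, no muscle or epidermis wells 496 and 424, 12 sums 253 and 165, and at least 2000 transcripts together with no deepest well (chosen after seeing the data) 329 and 223; globin genes kept gave 117 lower. Against the mean of both: no filter gave 341 and 338, thinning 0 and 1, narrower bounds 151 and 308, no deepest well 148 and 316, no muscle or epidermis wells 237 and 372, no neutrophil or macrophage cells 1 and 16, at least 2000 transcripts with no deepest well 163 and 348, and 12 sums 55 higher. D against S: no filter gave 154 and 7 and only the sums of members 28 and 3, while DESeq2, thinning, narrower bounds, no deepest well, no muscle or epidermis wells and at least 2000 transcripts with no deepest well gave 0 higher. Its interaction with cells under 1%: DESeq2 gave 23 and 1, no filter 167 and 16, no muscle or epidermis wells 3 and 2, and thinning 2 higher. Without the replicate block (the plate), the counts were 531 and 1009 against cells under 1%, 122 and 59 against cells over 5%, 6 higher against the mean of both and 0 for D against S, and MYB, UROD and gabarapa were not called against cells over 5%. The thinned fit tested fewer genes; for the other changes the cause was not tested. Signs turned, mostly near 0, for these log2 folds. Against cells under 1%: MYB -0.23 thinned and -0.050 without neutrophil or macrophage cells, lyz 0.41 and npsn 0.37 without those cells, krt91 0.14 without muscle or epidermis wells, and npm1a 0.45 thinned, 0.026 with narrower bounds and 0.020 with plate 21 read down columns. Against cells over 5%: TAL1 0.35 thinned, 0.0090 without the deepest well, 0.011 without muscle or epidermis wells and 0.039 at 2000 transcripts with no deepest well; LMO2 -0.013 with globin kept and -0.045 with narrower bounds; klf1 0.045, PCNA 0.035 and ATP5F1A -0.039 thinned. D against S: alas2 0.028 with no filter and 0.11 with narrower bounds. Leaving out each plate in turn gave ranges across 0 for npm1a against cells under 1% (-0.17 to 0.14), against cells over 5% for TAL1 (-0.17 to 0.11), LMO2 (-0.036 to 0.19), EPOR (-0.69 to 0.0032) and lyz (-0.10 to 0.39), and for D against S for alas2 (-0.31 to 0.28), cahz (-0.34 to 0.25) and myhz2 (0 to 5.95).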
